A study of Homo sapiens with 6 samples.

Results

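The genes described here set how much glucose a cell takes up and how it is used, and were followed through a knockdown of DNAJC2 in a renal carcinoma line. They are the 10 of 20532 genes in the deposited count table named SLC2A1, SLC2A3, HK1, HK2, PFKFB3, PFKFB4, PGK1, ENO2, LDHA and PDK1. They were listed by name, with no cutoff on a measured value, but with earlier results of these data known. All 10 passed the filter on low counts. The cells are labelled ACHN, an established human renal carcinoma line, and the labels assign them to clear cell carcinoma. The 3 control libraries (shCtrl 1, 2 and 3) carried a lentiviral negative control hairpin, and the 3 others (shDNAJC2 1, 2 and 3) a lentiviral hairpin against DNAJC2, a ribosome-associated co-chaperone. All 6 had thus been transduced. Nothing stated that the replicates came from separate transductions, so p-values measure the spread between these libraries, which may be technical.

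Glucose enters cells through the facilitative transporters GLUT1 (SLC2A1) and GLUT3 (SLC2A3), and hexokinases (HK1, HK2) trap it by phosphorylation. The bifunctional enzymes PFKFB3 and PFKFB4 set the level of fructose 2,6-bisphosphate, the strongest activator of phosphofructokinase. PGK1 and ENO2 act in the lower part of the pathway, LDHA turns pyruvate into lactate, and PDK1 keeps pyruvate from the citric acid cycle by inhibiting pyruvate dehydrogenase. Most of these genes are textbook targets of hypoxia-inducible factor, which is constitutively active in clear cell carcinomas that have lost VHL. Whether the cells used here have lost VHL was not tested, and its transcript levels are given below.

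Depth was 17491462 to 25760291 counts per library. DNAJC2 itself was at 76.7, 69.8 and 86.5 CPM (counts scaled to each library's TMM-adjusted size) across shCtrl 1 to 3 versus 51.2, 50.35 and 38.5 CPM across shDNAJC2 1 to 3, without overlap (log2 fold change −0.74, 95% interval −1.09 to −0.38, edgeR adjusted p = 0.429). Over all genes, shCtrl 3 stood nearer to shDNAJC2 2 than to the other controls. The root mean square difference in log2 CPM over 13988 genes was 0.259 against shDNAJC2 2 and 0.780 against shCtrl 1. Results that rest on shCtrl 3 are therefore given with and without it. Of 10 renal epithelial markers 6 averaged at least 1 CPM, PAX8 lay at 2.82 to 4.64 CPM, PAX2 and LRP2 had at most 1 count in a library and CDH16 had 0. Summed, these markers were at 232 to 341 CPM in the controls and 262 to 329 CPM in the knockdown. Most of this came from CDH2, at 98.0 to 172 CPM, and KRT18, at 66.5 to 89.8 CPM. Of 10 markers of blood, endothelial, fibroblast, liver and islet cells 4 averaged at least 1 CPM, with summed levels of 886 to 3000 CPM in the controls and 723 to 1230 CPM in the knockdown. CD3E, CDH5 and INS had 0 counts. The fibroblast collagen gene COL1A1 made up most of that sum and was lower in the libraries where the 10 glucose genes were higher, at 2795, 2784 and 695 CPM across shCtrl 1 to 3 versus 572, 623 and 1066 CPM across shDNAJC2 1 to 3. Its part in the results was not tested. PDGFRB, from the same 10 markers as COL1A1, was at 125, 128 and 95.9 CPM across shCtrl 1 to 3. Across shDNAJC2 1 to 3 PDGFRB was at 76.6, 82.6 and 91.9 CPM. From the same markers, CD68 was at 71.0 to 92.2 CPM and PECAM1 at 0.687 to 3.86 CPM. The identity of the cells rests on the labels and was not tested.

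All 10 genes had a positive log2 fold change of knockdown over control, against 47.7% of all 13988 genes tested. Values lay between 0.03 (HK1) and 0.98 (PDK1), with a median of 0.45 against −0.016 over all genes tested. None of the 10 passed edgeR's quasi-likelihood test over all 6 libraries, where 0% of genes were called higher and 0% lower. At an unadjusted p under 0.05 stood 1 of the 10, PFKFB4, against 4% of all genes on the higher side and 7.33% on the lower. DESeq2 called 0 of the 10, against 0.25% of all genes, and 3 of the 10 had an unadjusted p under 0.05 there, against 13.5% of all genes. In none of the 10 did the knockdown libraries all lie above or all below the controls, against 7.33% of all genes separated higher and 8.42% separated lower.

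Each of the 10 genes was higher in shCtrl 3 than in shCtrl 1 and 2. The share of all genes for which this held was not counted, so it is not shown to be particular to the 10. For 4 of the 10 (SLC2A1, HK1, HK2 and PFKFB3) shCtrl 3 was the highest library of all, against 22.8% of all genes. Between shCtrl 1 and shCtrl 2 the ratio of CPM ran only from 0.963 to 1.05 over the 10 genes. In shCtrl 3 the level was 1.29 (LDHA) to 7.71 (HK2) times the mean of those 2 controls. Averaged over the 10 genes, log2 CPM relative to each gene's own mean was −0.79 and −0.78 in shCtrl 1 and 2 and 0.54 in shCtrl 3. Across shDNAJC2 1 to 3 it was 0.54, 0.51 and −0.017, so shDNAJC2 3 lay between the high and the low libraries. Without shCtrl 3, 9 of the 10 genes rose in edgeR, with HK1 the exception, against 17.8% of 14201 genes called higher and 17% called lower. All 10 then lay higher in each knockdown library than in both controls, against 32% of all genes separated higher and 33% lower. The median log2 fold change of the 10 was 0.997 in that fit. Without shDNAJC2 3, 4 of the 10 (SLC2A3, PGK1, LDHA and PDK1) lay higher in both remaining knockdown libraries than in all controls, against 19.4% of all genes. Without shDNAJC2 1 this held for 1 of the 10, PFKFB4, against 8.24%. The library shCtrl 3 was left out with its values known, so the fit without it describes 3 libraries against 2 and is no independent test.

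**Figure D1:**
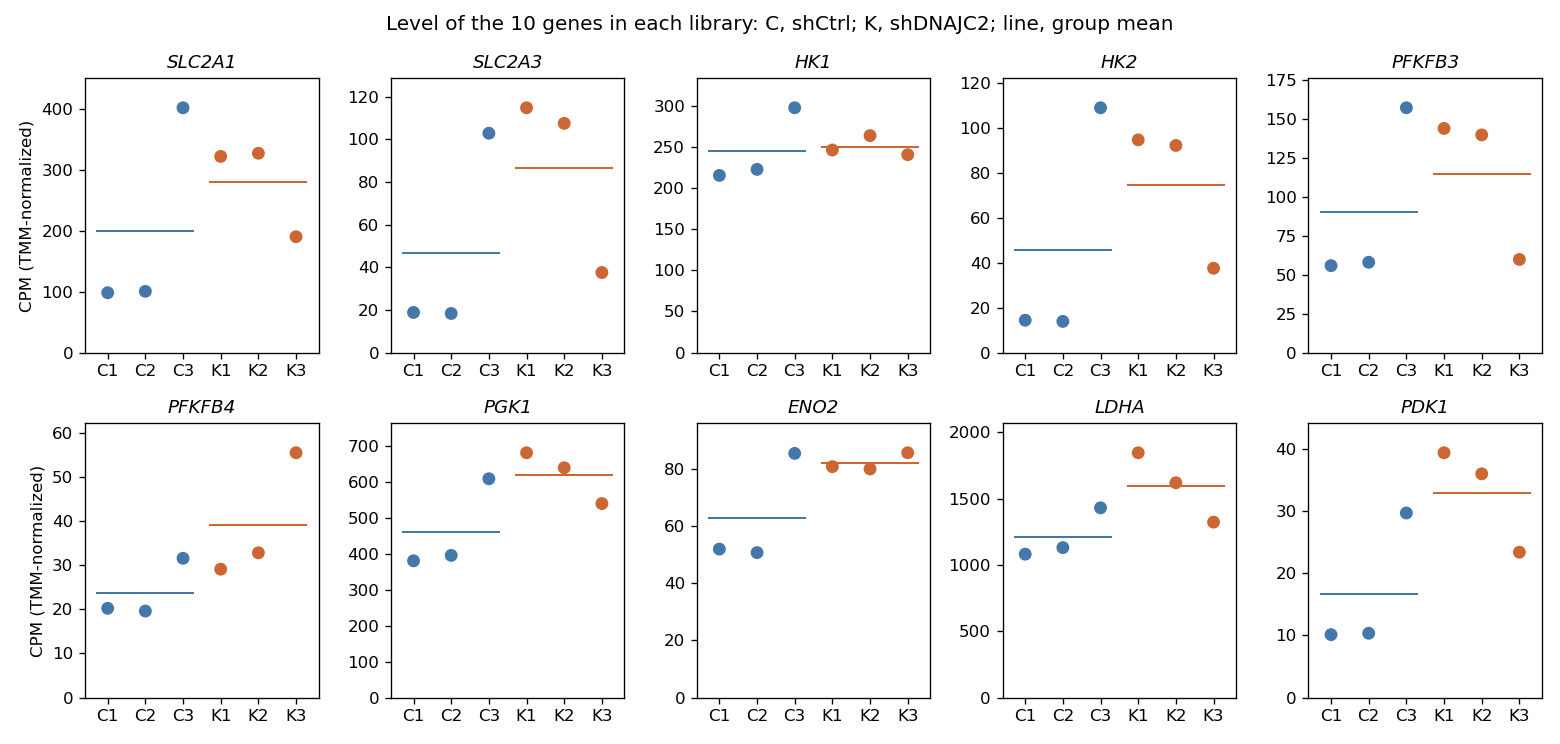
CPM of each of the 10 genes in the 3 control (C1 to C3, blue) and 3 knockdown libraries (K1 to K3, orange), with lines at the group means and all axes starting at 0. C3 lies above C1 and C2 in every panel, and K3 lies below K1 and K2 for 8 genes (not PFKFB4 and ENO2).

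Among the glucose transporters, SLC2A1 (ENSG00000117394, protein coding like all 10, chromosome 1, 42925375 to 42959176, minus strand, GRCh38) encodes GLUT1, the basal transporter of most cells. In the order of the replicate numbers 1 to 3, which holds for every set of 3 values below, it was at 98.2, 100.5 and 402 CPM among controls versus 322, 327 and 190.2 CPM after knockdown. The highest library was a control, and the 2 lowest were controls too. The means of 200.2 ± 175 CPM for controls and 279.8 ± 77.6 CPM for knockdown (SD, n = 3) gave a log2 fold change of 0.48 (standard error 0.58, edgeR adjusted p = 0.673). Without shCtrl 3 it rose 2.82-fold, a log2 fold change of 1.497 (95% interval 0.999 to 1.995, edgeR adjusted p 0.00165).

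SLC2A3 (ENSG00000059804, chromosome 12, 7919230 to 7936275, minus strand) encodes GLUT3, a transporter of high affinity best known from neurons. Its level was 18.8, 18.3 and 103 CPM among controls versus 115, 108 and 37.5 CPM after knockdown. The 2 highest values belonged to shDNAJC2 1 and 2, and shCtrl 3 stood just under them. The fitted log2 fold change was 0.89 (standard error 0.76, edgeR adjusted p = 0.564), and 2.22 (1.28 to 3.16) without shCtrl 3, where the gene rose with an adjusted p of 0.00479. SLC2A14, a near-identical copy beside SLC2A3, was at 0.191 to 1.04 CPM, and how the counting divided reads between the pair was not given in the sources used here.

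The hexokinases parted. HK1 (ENSG00000156515, chromosome 10, 69269984 to 69401884, plus strand), the housekeeping form, was at 216, 223 and 298 CPM among controls versus 246, 264 and 241 CPM after knockdown. Its group means of 245 ± 45.5 and 250.3 ± 12.1 CPM gave a log2 fold change of 0.03 (95% interval −0.33 to 0.39, edgeR adjusted p = 0.932). HK1 also had the smallest span of the 10 genes, with its highest library only 1.38 times its lowest. HK2 (ENSG00000159399, chromosome 2, 74833981 to 74893359, plus strand) is the inducible form of muscle and many tumours and had the widest span, 7.86-fold. It was at 14.4, 13.9 and 109 CPM among controls versus 94.7, 92.2 and 37.5 CPM after knockdown. Over all 6 libraries its log2 fold change was 0.71 (standard error 0.84, edgeR adjusted p = 0.672). Without shCtrl 3, HK2 rose 5.29-fold, the largest rise of the 10 genes (log2 fold change 2.40, 1.58 to 3.23, edgeR adjusted p 0.0019), and HK1 did not pass (0.20, −0.03 to 0.42, adjusted p 0.151).

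The PFKFB pair differed in shDNAJC2 3, which lay below the other knockdown libraries for PFKFB3 and above them for PFKFB4. PFKFB3 (ENSG00000170525, chromosome 10, 6144934 to 6254644, plus strand) encodes the form with the highest kinase over phosphatase activity, which favours glycolysis. It was at 55.7, 57.9 and 157 CPM among controls versus 144, 139.6 and 59.7 CPM after knockdown. Thus shDNAJC2 3 was almost at the level of shCtrl 1 and 2, while the other knockdown libraries matched shCtrl 3 more closely. PFKFB4 (ENSG00000114268, chromosome 3, 48517684 to 48562015, minus strand), a relative with more balanced activities, was at 20.2, 19.6 and 31.6 CPM among controls versus 29.1, 32.8 and 55.5 CPM after knockdown. Here shDNAJC2 3 was the highest library, at 1.79 times the mean of shDNAJC2 1 and 2, where for PFKFB3 it was at 0.421 times. Log2 fold changes were 0.34 (−0.84 to 1.53) for PFKFB3 and 0.72 (0.01 to 1.43) for PFKFB4 (edgeR adjusted p = 0.733 and 0.429). Without shCtrl 3 both rose, by 1.01 and 0.98 on the log2 scale (edgeR adjusted p 0.0376 and 0.0174). Without shDNAJC2 3 the log2 fold change of PFKFB4 was 0.39 and that of PFKFB3 0.66, and neither passed.

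Promoter stretches of 4 genes are shown: PFKFB3 and PFKFB4, which parted in shDNAJC2 3, HK2, with the widest span, and PGK1, with 3 matches to the motif searched. Sequences are from RefSeq on GRCh38.p14, 5′ to 3′ on the strand of the gene, and end before the first base of any principal transcript in GENCODE 29. Capitals mark ACGTG or GCGTG, the core of the hypoxia response element, on either strand, so that it also reads CACGT or CACGC. They are chr10:6202682-6202930 (plus strand) for PFKFB3, chr3:48556891-48557053 (minus) for PFKFB4, chr2:74833877-74833980 (plus) for HK2 and chrX:78103998-78104173 (plus) for PGK1. Those of PFKFB3, PFKFB4 and PGK1 lie within the annotated span of the gene, past the starts of longer transcripts. The HK2 stretch holds 1 of the 3 matches counted below.
PFKFB3 promoter: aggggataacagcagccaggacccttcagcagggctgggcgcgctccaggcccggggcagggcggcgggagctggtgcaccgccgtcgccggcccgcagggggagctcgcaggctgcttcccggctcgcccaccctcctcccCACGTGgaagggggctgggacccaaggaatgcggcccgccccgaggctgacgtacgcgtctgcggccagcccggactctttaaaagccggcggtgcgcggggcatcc
PFKFB4 promoter: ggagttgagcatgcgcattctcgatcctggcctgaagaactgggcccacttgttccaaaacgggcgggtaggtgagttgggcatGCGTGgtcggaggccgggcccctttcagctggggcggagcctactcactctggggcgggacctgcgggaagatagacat
HK2 promoter: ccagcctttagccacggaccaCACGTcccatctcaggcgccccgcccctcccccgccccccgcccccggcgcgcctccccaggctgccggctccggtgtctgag
PGK1 promoter: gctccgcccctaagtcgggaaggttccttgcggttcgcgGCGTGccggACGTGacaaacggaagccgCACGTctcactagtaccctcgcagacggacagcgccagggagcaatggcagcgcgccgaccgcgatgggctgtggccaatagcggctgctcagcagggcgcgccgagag
In the 250 bases before the RefSeq start nearest to a principal transcript, PGK1 and HK2 had 3 matches each, PFKFB3 and PDK1 2 each, and PFKFB4, HK1, ENO2 and LDHA 1 each. SLC2A1 had 0, and SLC2A3 had no entry. Both PFKFB3 matches are the 2 strands of one CACGTG, which is also the E-box, and no other window of the 9 held that E-box. The core was thus in 8 of 9 windows, against 43.2% of 35116 RefSeq windows of that length. Of the 11387 windows with a GC content of at least 65%, 61.2% held it. All matches of HK1, ENO2 and PDK1 lie past the first base of a principal transcript, so they are not strictly upstream. Counting every RefSeq window of a gene, the core was in 1 of 7 for HK1 and 1 of 2 for PDK1. For HK2, PFKFB3 and LDHA it was in 2 of 2. The 9 windows had GC contents of 64.8 to 79.6%. CACGTG was in 6.34% of all windows. The ATF4 composite element core TGATGNAA was in 0 of the 9 and in 3.14% of all. These matches describe letters and do not show binding.

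Further down the pathway PGK1 and ENO2 differed less between libraries. PGK1 (ENSG00000102144, chromosome X, 77910739 to 78129296, plus strand), phosphoglycerate kinase, yields the first ATP of glycolysis. It was at 380.5, 396 and 609 CPM among controls versus 681, 639 and 539.8 CPM after knockdown. The log2 fold change was 0.43 (−0.08 to 0.93, edgeR adjusted p = 0.435), and 0.68 without shCtrl 3, where it rose (adjusted p 0.00504). ENO2 (ENSG00000111674, chromosome 12, 6913745 to 6923698, plus strand), the neuronal or gamma form of enolase, was at 52.0, 50.7 and 85.5 CPM among controls versus 80.8, 80.0 and 85.7 CPM after knockdown. ENO2 was the most even of the 10 genes in the knockdown group, at 82.2 ± 3.06 CPM (SD, n = 3), and shCtrl 3 lay just below its highest library. Its log2 fold change of 0.39 (−0.11 to 0.89, edgeR adjusted p = 0.442) became 0.68 (0.47 to 0.90, adjusted p 0.00131) without shCtrl 3.

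LDHA (ENSG00000134333, chromosome 11, 18394388 to 18408425, plus strand) had the most counts of the 10, at 1081, 1130.2 and 1430.3 CPM among controls versus 1845, 1619 and 1322 CPM after knockdown. In shCtrl 3 LDHA lay between shDNAJC2 2 and shDNAJC2 3 and was 57.6% of the way, on the log2 scale, from the mean of shCtrl 1 and 2 to that of shDNAJC2 1 and 2. The log2 fold change was 0.39 (−0.05 to 0.84, edgeR adjusted p = 0.43), and 0.53 (0.18 to 0.89, adjusted p 0.0294) without shCtrl 3. PDK1 (ENSG00000152256, chromosome 2, 172555373 to 172608669, plus strand) was at 10.1, 10.3 and 29.7 CPM among controls versus 39.4, 36.0 and 23.4 CPM after knockdown. Of the knockdown libraries only shDNAJC2 3 lay below shCtrl 3. Over all 6 libraries its log2 fold change of 0.98 (standard error 0.46) was the largest of the 10 (edgeR adjusted p = 0.43). It rose 3.22-fold without shCtrl 3 (log2 fold change 1.69, 1.19 to 2.18, adjusted p 9.5e-04), with the smallest p of the 10.

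**Figure D2:**
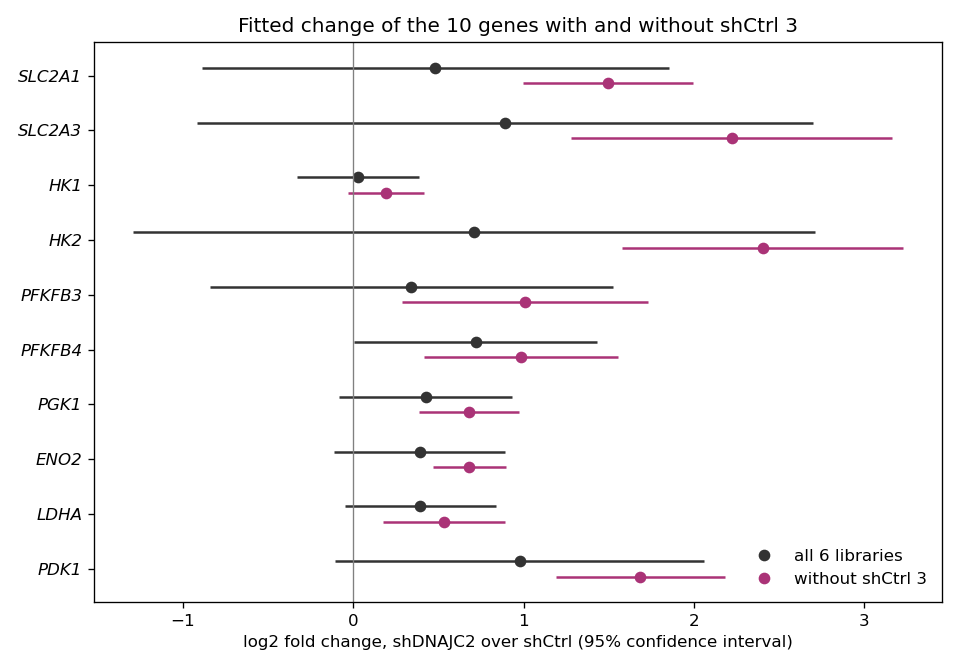
Fitted log2 fold change of knockdown over control for the 10 genes, with 95% confidence intervals, over all 6 libraries (black) and without shCtrl 3 (purple). With all libraries only the interval of PFKFB4 lies above 0 (0.01 to 1.43), and without shCtrl 3 only that of HK1 includes 0 (−0.03 to 0.42).

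Where shCtrl 3 and shDNAJC2 3 stood relative to the other libraries varied from gene to gene, and whether they differed by a common step was not tested. On the log2 line from the mean of shCtrl 1 and 2 (0%) to the mean of shDNAJC2 1 and 2 (100%), shCtrl 3 lay at 81.7 to 118% for 8 of the 10 genes, at 57.6% for LDHA and at 202% for HK1, whose line was only 0.22 log2 units long. On the same line shDNAJC2 3 lay at 5.43% for PFKFB3, at 39.3 to 63.4% for SLC2A3, LDHA, HK2, SLC2A1, HK1, PGK1 and PDK1, at 114% for ENO2 and at 234% for PFKFB4. Over the 1864 tested genes whose line was at least 1 log2 unit long, the median position was 97.2% for shCtrl 3. For shDNAJC2 3 it was 59.3%, with quartiles of 42.4 and 75.2%. The lines of HK1, PFKFB4, LDHA, ENO2 and PGK1 were shorter than that, at 0.22 to 0.77 log2 units. Their positions are therefore not matched by this background, and on a short line a given difference is a larger percentage.

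Levels of different genes can be compared only per length. In CPM per kilobase of the longest principal transcript, the control means ran in the order LDHA (502 ± 78.3), PGK1 (94.5 ± 26.1), HK1 (68.1 ± 12.6), SLC2A1 (54.5 ± 47.6), ENO2 (22.2 ± 6.97), PFKFB3 (20.1 ± 12.9), SLC2A3 (11.9 ± 12.4), HK2 (7.92 ± 9.48), PFKFB4 (6.64 ± 1.88) and PDK1 (1.18 ± 0.792; SD, n = 3). The step from LDHA to PGK1 exceeded these SDs, while neighbours from HK1 down to PFKFB4 differed by less than the larger SD of the pair. PDK1 rests on a transcript of 14193 bases and was at 5.59 per kilobase with its principal transcript of 2990 bases, so its place is uncertain. In the knockdown SLC2A1 (76.2 ± 21.2) stood above HK1 (69.4 ± 3.36) by less than the spread. Within single libraries the order did turn: SLC2A1 per kilobase was at 26.8 against 59.8 for HK1 in shCtrl 1, and at 109.5 against 82.6 in shCtrl 3.

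Ratios between related genes within a library do not depend on how libraries are scaled. HK2 over HK1 was at −3.90, −4.00 and −1.45 (log2 of the CPM ratio) in the controls and −1.38, −1.52 and −2.68 in the knockdown libraries. Per length, here that of the longest coding transcript (5772 bases for HK2 and 3998 for HK1, whose principal transcript of 3605 bases was used above), HK2 was thus 4.42, 4.13 and 20.2% of the 2 hexokinases among controls versus 21.0, 19.5 and 9.74% after knockdown. The mean log2 ratio was 1.26 higher in the knockdown over all libraries and 2.09 higher without shCtrl 3. PFKFB4 over PFKFB3 was at −1.46, −1.56 and −2.31 in the controls and −2.30, −2.09 and −0.10 in the knockdown libraries. Per length PFKFB4 made up 20.2 to 31.4% of the pair in 5 libraries and 54.0% in shDNAJC2 3. The difference of 0.28 turned to −0.42 when that library was left out.

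SLC2A3 over SLC2A1 differed by 0.45 and LDHA over LDHB, the heart form of the dehydrogenase, by 0.28. PDK1 over PDK3 differed by 0.66 and ENO2 over ENO1, the common enolase, by 0.10. None of the 6 ratios separated the groups, and two-sided exact permutation tests gave p = 0.2 to 0.8, with 0.45 to 0.8 after adjustment over the 6 pairs. A design of 3 libraries against 3 allows no p below 0.1. ENO1 itself was at 1754, 1897 and 3647 CPM among controls versus 3096, 3263 and 2389 CPM after knockdown. LDHB stayed between 553 and 688 CPM in all 6 libraries, with a log2 fold change of 0.12 (edgeR adjusted p = 0.646).

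**Figure D3:**
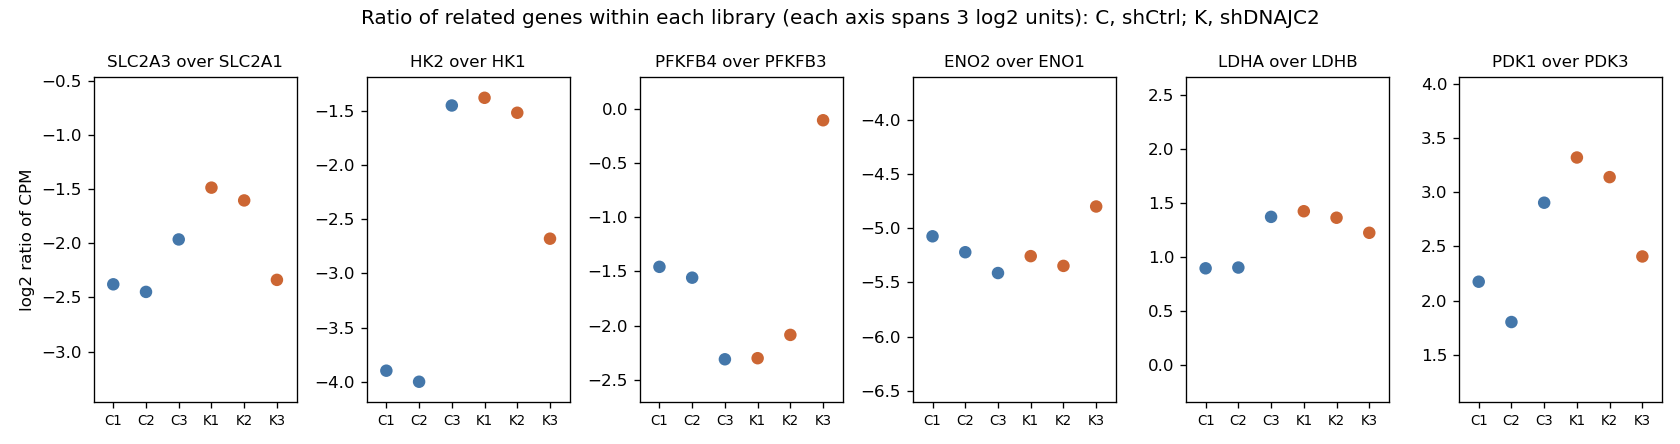
Log2 ratio of CPM of 6 pairs of related genes in each control (C1 to C3, blue) and knockdown library (K1 to K3, orange), on axes that all span 3 log2 units. HK2 over HK1 is about −4 in C1 and C2 and −1.45 in C3, and PFKFB4 over PFKFB3 stands apart in K3 at −0.10.

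Of the other glycolytic enzymes, 22 of 29 were tested and 0 passed over all 6 libraries, with a median log2 fold change of 0.07. The 3 with the smallest p were all negative: PGAM4 at −0.47, PFKL, the liver form of phosphofructokinase, at −0.28 and PGAM2, the muscle phosphoglycerate mutase, at −0.45. PGAM4 is a copy of PGAM1, and its counts are uncertain for that reason. Without shCtrl 3 the median was 0.09. In that fit 5 of the 22 rose and 1 (PGAM4) fell, against 17.8% of all genes called higher and 17% called lower. Those 5, named after their values were seen, were HKDC1 (2.25), ALDOA (0.80), ENO1 (0.68), PFKP (0.49) and GPI (0.38). GAPDH, PKM, PGAM1 and TPI1, enzymes of high level in most cells, did not pass in either fit.

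Of 16 other hexose transporters 9 were tested and 0 passed, with a median of −0.03. The intracellular transporter SLC2A8 was at 13.1, 14.2 and 13.6 CPM among controls versus 9.76, 11.8 and 10.9 CPM after knockdown, all lower, with a log2 fold change of −0.33 (edgeR adjusted p = 0.429). SLC2A6 was at −0.29 and SLC2A10 at −0.37. Without shCtrl 3, SLC2A14 rose by 1.79 and SLC2A10 and SLC2A4 fell, of 10 tested. The shares over all genes in that fit were 17.8% called higher and 17% called lower. SLC2A4, the insulin-responsive GLUT4, was at no more than 0.496 CPM. GLUT2 (SLC2A2) and the sodium-coupled SLC5A1, both tubule or gut transporters, had 0 counts in every library, which allows up to 3 counts, or 0.116 to 0.172 CPM, for counting error only. SLC5A2, the main sodium-glucose transporter of the proximal tubule, was at 27.7 to 36.6 CPM.

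Among 20 genes of pyruvate and lactate handling 18 were tested and 0 passed (median 0.02). PDK2, a kinase of the same enzyme as PDK1, had the opposite sign, at 30.1, 30.3 and 20.04 CPM among controls versus 16.2, 17.2 and 22.2 CPM after knockdown, a log2 fold change of −0.53 (edgeR adjusted p = 0.429). The monocarboxylate transporter SLC16A7 was at 0.31, with all knockdown libraries above the controls, and pyruvate carboxylase (PC) at −0.34. Without shCtrl 3, 4 of the 18 rose and 3 fell. Both counts were near the shares over all genes in that fit, 17.8% called higher and 17% called lower. Of the PDK family, PDK1 and PDK3 (0.68) then rose, and PDK2 (−0.70) and PDK4 (−0.99) fell. The other risers were the lactate transporters SLC16A1 (1.07) and SLC16A3 (0.46) and the phosphatase PDP1 (0.53), which reverses the action of the PDKs. MPC1 (−0.44), part of the mitochondrial pyruvate carrier, fell. SLC16A1 was at 78.6, 81.2 and 157 CPM among controls versus 197, 175 and 130.1 CPM after knockdown. Genes beyond the first 3 of this list were named after their values were seen.

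In the branches that leave glycolysis, 0 of 8 tested pentose phosphate genes and 0 of 18 glycogen and hexosamine genes passed over all libraries, with medians of 0.15 and 0.175. PGD, which makes NADPH in the oxidative branch, was at 0.35, TALDO1 of the non-oxidative branch at 0.41 and RPE at 0.16. Without shCtrl 3, where 17.8% of all genes were called higher and 17% lower, 6 of the 8 rose and 0 fell. PGD rose by 0.70 and TALDO1 by 0.89. Glycogen synthase GYS1 was at 67.5, 67.7 and 44.7 CPM among controls versus 36.7, 38.8 and 43.8 CPM after knockdown, without overlap, with a log2 fold change of −0.59 (edgeR adjusted p = 0.429). The glycogen branching enzyme GBE1 was at 0.53 and GFPT1, which opens the hexosamine route, at 0.28. Without shCtrl 3 GYS1 fell by 0.76, and GBE1 (0.82), GFPT1 (0.40) and 3 others of the 18 rose.

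Of 18 regulators of glucose use 16 were tested and 0 passed (median 0.22). In the 16 there were 4 with all knockdown libraries above all controls, against 7.33% of all genes. These were HIF1A, TIGAR, VHL and PRKAA2, of which VHL and PRKAA2 are named after their values were seen. VHL was at 65.36, 64.97 and 65.004 CPM among controls versus 75.3, 68.2 and 83.8 CPM after knockdown. Its log2 fold change was 0.22, and that of PRKAA2 was 0.31 (edgeR adjusted p = 0.432 for both). HIF1A, the oxygen-regulated subunit of hypoxia-inducible factor, was at 283, 293 and 349.5 CPM among controls versus 421, 390.4 and 391 CPM after knockdown, a log2 fold change of 0.38 (edgeR adjusted p = 0.429). TIGAR, a phosphatase that lowers fructose 2,6-bisphosphate, was at 17.1, 17.3 and 18.1 CPM among controls versus 21.6, 20.5 and 21.4 CPM after knockdown. TXNIP, which restrains glucose uptake, was at 31.9, 32.1 and 64.7 CPM among controls versus 80.3, 70.2 and 62.3 CPM after knockdown, overlapping at 1 library on each side. Without shCtrl 3, 6 of the 16 rose and 1 fell, against 17.8% of all genes called higher and 17% called lower. HIF1A rose by 0.48 and TXNIP by 1.15.

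Genes of 2 stress programmes were set beside these. Of hypoxia genes outside glycolysis 14 of 15 were tested, 0 passed (median 0.60) and 12 rose without shCtrl 3 (median 1.47). Of 15 ATF4 targets, 0 passed (median 0.88) and 15 rose without shCtrl 3 (median 3.17). In that fit 17.8% of all genes were called higher. The medians of both lists lay above those of the 10 genes, which were 0.45 over all libraries and 0.997 without shCtrl 3. The summed level of the 34 listed glycolytic enzymes was 14408, 15352 and 22945 CPM among controls versus 20496, 21264 and 17452 CPM after knockdown.

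**Figure D4:**
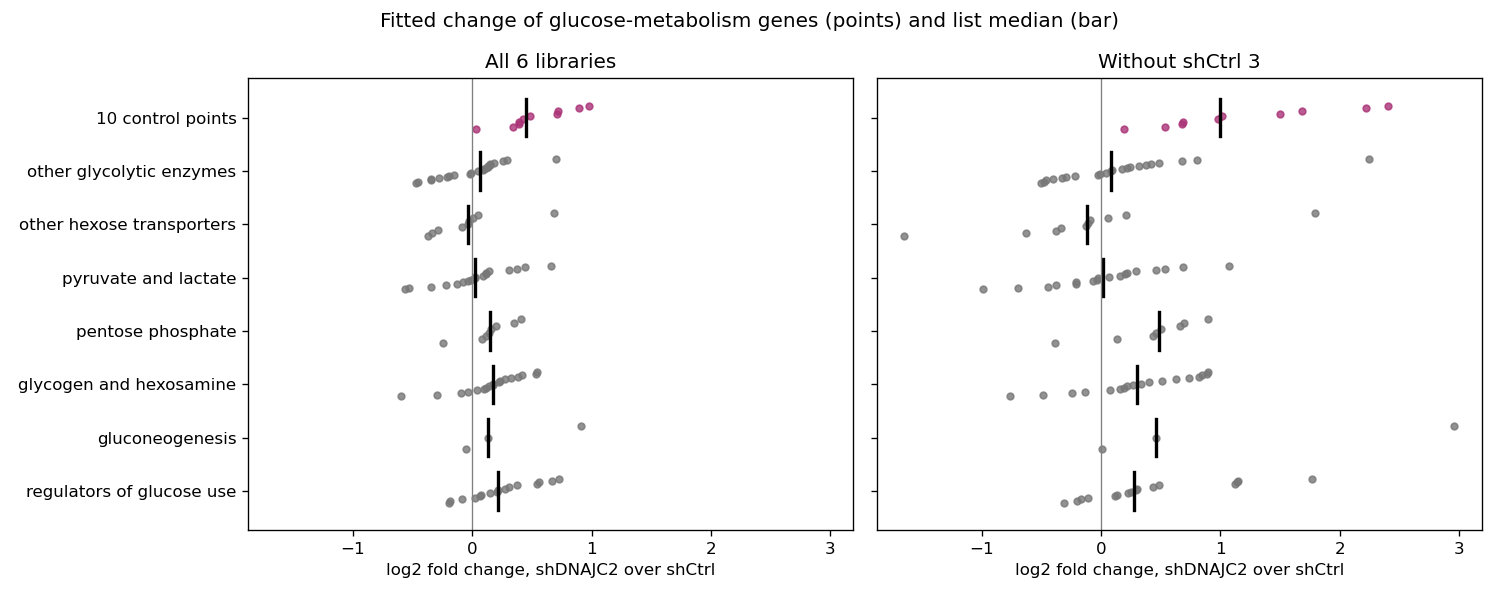
Fitted log2 fold change of knockdown over control for each tested gene (point) of the 10 control points and 7 other lists, with list medians as bars, over all 6 libraries (left) and without shCtrl 3 (right). The median of the 10 is 0.45 on the left and 0.997 on the right. Those of the other lists shown lie between −0.03 and 0.22 on the left and between −0.12 and 0.48 on the right. The hypoxia genes (medians 0.60 and 1.47) and ATF4 targets (0.88 and 3.17) are not shown.

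The 5 genes outside the 10 whose profile over the 6 libraries lay closest to the mean profile of the 10, among 11335 genes with a mean of at least 5 CPM, were ELK3, ZNF521, TSPAN5, LDLRAD3 and TRIB1. Their root mean square differences from it were 0.0235 to 0.038 log2 units. ELK3, an ETS-family transcription factor gene, was at 62.0, 60.8 and 160.5 CPM among controls versus 155, 154 and 106 CPM after knockdown.

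Some counts could hold reads of neighbours or copies, and the strand setting was not given in the sources used here. On the same strand, where stranded counting would not part them, exons of PGK1 overlap ATP7A and the pseudogene AL356235.1, those of PFKFB4 overlap UCN2 and those of SLC2A1 overlap the noncoding gene AC099795.1. Exons of SLC2A1, HK2 and PDK1 overlap a noncoding gene, and those of HK1 a processed pseudogene, on the opposite strand. GENCODE 29 names 6 pseudogenes after LDHA, 3 after SLC2A3 and 1 each after HK2 and PGK1.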

How the data were processed

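RNA enriched for mRNA from 6 ACHN libraries was sequenced as read pairs, per the labels' protocols. The authors deposited raw counts of reads per gene with no normalization, as the values (integers whose totals vary between libraries) showed. Per the submitters' processing notes the genome was hg38 (GRCh38). No source used here gave the aligner, counter or annotation. Columns were matched by library title. Of 20532 genes 20279 matched GENCODE 29 by identifier, from which coordinates and lengths were taken.

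Groups were compared with edgeR 4.0.16 (R 4.3.3) by its quasi-likelihood F test (two-sided) with TMM, filterByExpr, group as the only term and Benjamini-Hochberg adjustment over all genes tested, at a threshold of 0.05. Log2 CPM used a prior count of 2, and intervals are at 95%. Alternatives were DESeq2 1.42.0, limma-voom (limma 3.58.1), other size factors, filters, prior count and threshold, a replicate block and each library left out. A correction for GC content was a later addition, chosen after seeing the data. The scripts were tested on simulated counts.

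The members, the lists and the tests were chosen with earlier results of these data known. Named are the 10 genes, DNAJC2, the partner of each pair, up to 3 genes of smallest p from each list of the pathway, and the 5 genes closest to the mean profile of the 10. Genes beyond that are said to be named after their values were seen, or are named for being undetected, as cell type markers, as partners in a fit without shCtrl 3 or as sequence copies.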

Additional observations from a re-analysis of the deposited data

How the results depend on the processing

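In edgeR, genes were called only with shCtrl 3 left out, a library singled out with its values known. The 2 controls then left lay close together. Their root mean square difference in log2 CPM over all genes tested was 0.195, against 0.780 between shCtrl 1 and shCtrl 3. Calls in that fit are therefore no independent test. Leaving out 1 library at a time gave 0 to 4945 genes, 0 to 9 of the 10 control points and 0 to 37 other pathway genes called, and 0 to 10 control points without overlap between groups. Each upper end came without shCtrl 3, and the 5 other fits called 0 genes. DESeq2 called 35 genes (6 higher, 29 lower) and none of the 10, and edgeR had 1585 genes, limma-voom 1473, at an unadjusted p under 0.05. For the 10 genes, 70 of 70 values under settings that kept all libraries had the same sign and the same side of the threshold, and 48 of 60 with 1 library left out. The size moved by over 1.5 times for HK2 (0.71 to 1.30 with limma-voom and 1.5035 with the replicate block), SLC2A1 (0.48 to 0.79 and 0.84) and SLC2A3 (0.89 to 1.41 with the block), and for HK1, which lay between 0.014 and 0.086. Another 9 of those 60 passed, all without shCtrl 3, and HK1, ranging from −0.044 to 0.20, turned sign in 3, at −0.044 and −0.026 without shCtrl 1 and 2 and −0.0087 without shDNAJC2 2. With 1 library left out PFKFB4 ranged from 0.39 (without shDNAJC2 3) to 0.98, PFKFB3 from 0.10 to 1.01, SLC2A1 from 0.17 to 1.497, SLC2A3 from 0.52 to 2.22, HK2 from 0.29 to 2.40, PDK1 from 0.73 to 1.69, PGK1 from 0.32 to 0.68, ENO2 from 0.27 to 0.68 and LDHA from 0.28 to 0.53.

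The log2 ratio of PFKFB4 over PFKFB3 ranged from −0.42 to 0.68 and that of ENO2 over ENO1 from −0.066 to 0.21, the lower ends without shDNAJC2 3. The median of other hexose transporters was −0.073 with no low-count filter and −0.096 with at least 5 CPM in 3 libraries, and −0.18 to −0.083 with 1 library left out. The same ranges were 0.0099 to 0.48 for pentose phosphate and −0.022 to 0.081 for pyruvate and lactate genes. The cause was not tested.

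No pairing by replicate number was seen. Deviations from the group means correlated at −0.382, −0.521 and −0.664 for numbers 1, 2 and 3, and no library correlated best with its own number. Deviations within a group of 3 sum to 0, and shCtrl 3 and shDNAJC2 3 each stood apart from their group. This check therefore cannot exclude shared handling by number. A fit with the replicate number as a block called 0 genes and left 439 with an unadjusted p under 0.05. PDK1 over PDK3 rests on 2.17 to 4.34 CPM of PDK3, near the lowest levels used.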

Other observations

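Genes of the opposite direction, gluconeogenesis, were mostly undetected. PCK1 and G6PC1, which serve glucose release in the proximal tubule, and FBP2, the muscle form of the bisphosphatase, had 0 counts in every library, and FBP1 had 0 to 2. Each count of 0 allows up to 3 counts, or 0.116 to 0.172 CPM, for counting error only. Of the 7 listed genes 3 were tested and 0 passed over all libraries, with a median log2 fold change of 0.13. PCK2, the mitochondrial form of the carboxykinase, was at 22.7, 23.3 and 240.02 CPM across shCtrl 1 to 3 versus 191, 207 and 139 CPM across shDNAJC2 1 to 3. G6PC3, the ubiquitous glucose-6-phosphatase, was at 60.9 to 111 CPM in the controls and 78.8 to 98.5 CPM in the knockdown, and the transporter SLC37A4 at 24.0 to 27.8 CPM. Without shCtrl 3, where 17.8% of all genes were called higher, PCK2 rose by 2.96 and G6PC3 by 0.46.

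HKDC1, a hexokinase-like gene, was at 0.983, 0.458 and 4.85 CPM among controls versus 3.18, 3.35 and 3.66 CPM after knockdown. The germline forms PGK2 and LDHC and the blood form HK3 were at 0 to 3 counts in a library.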
